A study of Homo sapiens with 6 samples.

Results

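The 10 genes described here encode RNA-binding proteins that steer alternative splicing in particular tissues: ESRP1 and ESRP2, MBNL1, MBNL2 and MBNL3, CELF1 and CELF2, RBFOX2, QKI and NOVA2. They were chosen by name, and all 10 were found among the 56303 gene entries of the count table. RNA was sequenced from AGS, a cell line established from a human stomach adenocarcinoma, in 6 libraries. In 3 of them SRSF2 had been knocked down with transfected siRNA, short double-stranded RNA that triggers decay of a matching transcript (siSRSF2), and the other 3 are labelled WT. No control siRNA is mentioned for WT, and nothing states that replicates were grown separately. The p-values therefore reflect how far these 6 libraries vary, and that variation may be technical only.

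Splicing regulators of this kind bind short RNA motifs in or beside an exon, and the position of binding decides whether the exon is kept or skipped. ESRP proteins maintain the splice patterns of epithelial cells, and are low or lost in cells of mesenchymal character. MBNL proteins favour the splice patterns of differentiated tissue, CELF proteins oppose them on many of the same exons, and RBFOX, QKI and NOVA proteins act in muscle, brain and during epithelial-mesenchymal transition. SRSF2, the siRNA target, is a serine/arginine-rich protein that binds exons and promotes their inclusion. The values below are RNA levels of whole genes and show neither isoforms nor exon inclusion.

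The siRNA target was lower in every siSRSF2 library. SRSF2 stood at 44.5, 46.4 and 44.1 CPM (counts per 1e+06, with library sizes adjusted by TMM factors) in WT and at 21.6, 21.8 and 24.9 CPM in siSRSF2, a log2 fold change of -0.98 (SE 0.064, edgeR adjusted p = 4.39e-13). SRSF2 shares 1106 exon bases (36.7%) with MFSD11 on the opposite strand, which had a log2 fold change of -0.41 (edgeR adjusted p = 2.55e-06). In such bulk RNA, fewer cells with a transcript and less of it per cell cannot be told apart. Library totals ranged from 47518943 to 50021152 counts in WT and from 26610937 to 36651623 in siSRSF2, and 3 counts corresponded to 0.0600 to 0.113 CPM before TMM scaling. Among counts of 1 to 10, between 78.3% and 81.7% were even numbers in each library. Counting both reads of a pair would give even numbers, and no source used here says whether reads or pairs were counted, so the low counts given below may be up to 2 times the number of fragments. Limits from counts cover counting error only. The keratin genes KRT8 (3236 ± 156 CPM in WT) and KRT18 (1099 ± 53.5 CPM; SD, n = 3) were abundant, whereas the epithelial adhesion genes EPCAM (218 to 265 counts per WT library) and CDH1 (7 to 12 counts) were low and TFF2 had no counts in any library. EPCAM, CDH1 and TFF2 were named after their values were seen.

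Of the 10 genes, 9 had enough counts for the test and NOVA2 did not. In siSRSF2 cells 2 of the 9 were higher (RBFOX2 and MBNL2), 3 were lower (MBNL1, CELF1 and QKI) and 4 did not pass (ESRP1, ESRP2, MBNL3 and CELF2), at an edgeR quasi-likelihood adjusted p of 0.05. Across all 23689 genes tested, 59.1% passed, 30.1% higher and 29.0% lower, so the members' share was near the background. Their median log2 fold change was -0.13, against 0.02 over all genes tested. The groups did not overlap in 5 of the 9, the genes that passed, against 63.8% of all genes. RBFOX2 moved most, and all 9 changes were smaller than that of SRSF2.

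**Figure D1:**
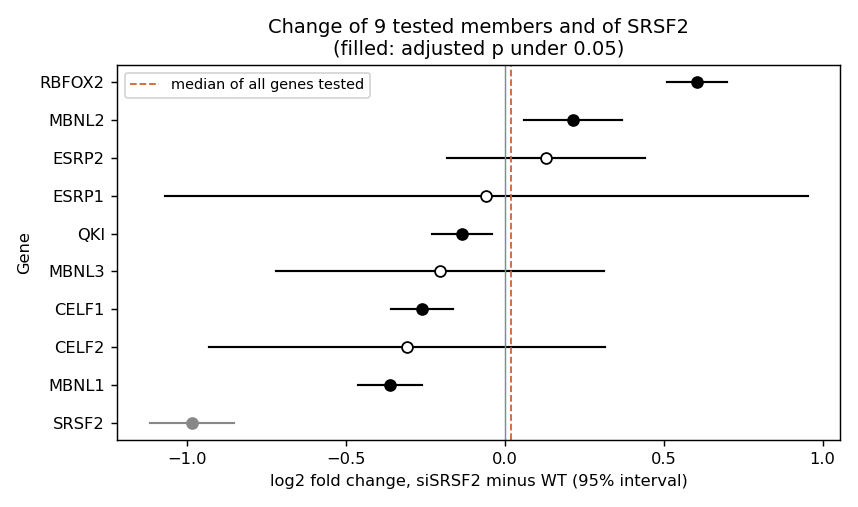
Log2 fold change (siSRSF2 minus WT, x axis) of the 9 tested members and of SRSF2 (y axis), with unadjusted 95% intervals from the edgeR fit. Filled points passed an adjusted p of 0.05, and the dashed line is the median of all genes tested (0.02). RBFOX2 (0.60) lies at the upper end and MBNL1 (-0.36) at the lower end of the members, with wide intervals for ESRP1, CELF2 and MBNL3.

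The 10 genes spanned a wide range of levels, and the same 5 genes led in both groups. Per kilobase of exon, which allows comparison between genes, WT cells held most CELF1 (mean level 14.1 CPM per kb), then RBFOX2 (10.4), QKI (7.97), MBNL1 (7.55) and MBNL2 (4.69). ESRP2 followed at 0.701 CPM per kb, and MBNL3 (0.110), CELF2 (0.0918), ESRP1 (0.0639) and NOVA2 (0.0114) came last. In WT the ranges of MBNL3 and CELF2 overlapped, as did those of CELF2 and ESRP1, and other neighbours were separate. In siSRSF2 cells RBFOX2 (15.7 CPM per kb) stood above CELF1 (11.8), without overlap, and MBNL1 (5.88) and MBNL2 (5.46) overlapped, as did MBNL3 with CELF2 and CELF2 with ESRP1.

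**Figure D2:**
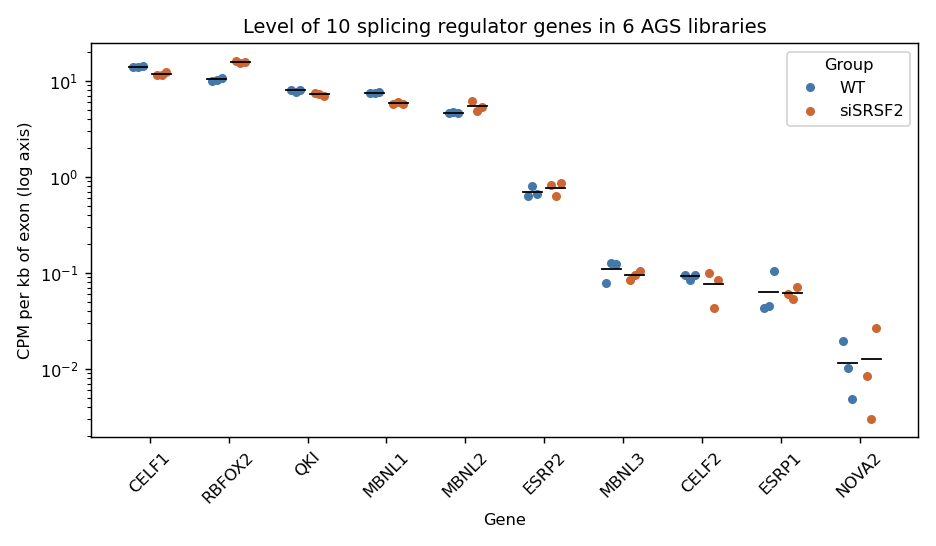
CPM per kb of exon (y axis, log scale) of the 10 genes (x axis, ordered by the WT mean), with 1 point per library, 3 WT and 3 siSRSF2, and a line at each group mean. CELF1, RBFOX2, QKI, MBNL1 and MBNL2 lie between 4.64 and 16.0, ESRP2 between 0.625 and 0.861, and the other 4 genes at or below 0.126.

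The MBNL genes encode zinc-finger proteins and are the largest family among the 10. The first coding bases, for the start of the first zinc-finger region, are shown because the paralogs differ in level and in direction of change, and reads have to tell them apart. Each stretch holds 120 coding bases of the principal GENCODE transcript (GRCh38): MBNL1 at chr3:152300194-152300313 (plus strand), MBNL2 at chr13:97276236-97276355 (plus strand) and MBNL3 at chrX:132439489-132439608 (minus strand, starting at coding base 4, the best match). Capitals mark bases that differ from MBNL1, and in MBNL1 those at which either paralog differs.
MBNL1: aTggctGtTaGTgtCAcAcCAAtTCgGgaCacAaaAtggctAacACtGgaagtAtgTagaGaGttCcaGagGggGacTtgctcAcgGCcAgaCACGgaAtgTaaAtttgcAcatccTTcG
MBNL2: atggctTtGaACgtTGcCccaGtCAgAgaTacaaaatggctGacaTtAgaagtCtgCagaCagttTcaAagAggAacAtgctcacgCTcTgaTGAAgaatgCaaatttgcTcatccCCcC
MBNL3: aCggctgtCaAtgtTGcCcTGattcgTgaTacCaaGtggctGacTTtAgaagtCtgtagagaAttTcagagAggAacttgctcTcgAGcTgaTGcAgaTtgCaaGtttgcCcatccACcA
MBNL2 and MBNL3 each differed from MBNL1 at 35 of the 120 positions (identity 70.8%). No stretch of 50 bases in the GENCODE transcripts of any of the 10 genes occurred in transcripts of another of the 10.

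MBNL1 (chromosome 3, 152243828 to 152465780, plus strand, 19 merged exons) was lower in siSRSF2 cells. It stood at 74.9, 74.9 and 76.4 CPM in WT and at 57.6, 60.8 and 57.6 CPM in siSRSF2. No siSRSF2 library reached the lowest WT value, a 1.28-fold lower level (log2 fold change -0.36, SE 0.049, edgeR adjusted p = 4.75e-07). The call held against a change of 1.2-fold (adjusted p = 0.0192), and the log2 fold change became -0.23 with scaling by library totals. Exons of MBNL1 share 1140 bases (11.4% of its exon length) with MBNL1-AS1 on the opposite strand, which had a log2 fold change of -0.25 (SE 0.089, edgeR adjusted p = 0.0164). MBNL1 also shares 415 exon bases with RP11-362A9.3, likewise on the opposite strand, which held 6 to 13 counts per library. No source used here gives the strand setting of the counting. Reads from these shared parts may therefore belong to the partner gene.

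MBNL2 (chromosome 13, 97221434 to 97394120, plus strand), which shares RNA targets with MBNL1 and has its main known role in brain, was higher. Its level was 22.8, 23.3 and 22.9 CPM in WT and 30.4, 23.6 and 26.4 CPM in siSRSF2. The groups were separate by a narrow margin, and siSRSF2 replicate 1 was the highest library. This was a 1.16-fold higher level (log2 fold change 0.21, SE 0.075, edgeR adjusted p = 0.0167). The call ended without siSRSF2 replicate 1 (log2 fold change 0.13, adjusted p = 0.155), without WT replicate 1 (adjusted p = 0.0648) and without WT replicate 3 (0.0588). It also ended when no low-count filter was used (log2 fold change 0.14, adjusted p = 0.131), and against a change of 1.2-fold (0.632), whereas scaling by library totals gave 0.34.

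MBNL3 (chromosome X, 132369317 to 132489968, minus strand), the member of the family linked to immature muscle cells, was rare. It had 46, 70 and 72 counts in WT libraries against 28, 45 and 44 in siSRSF2, or 0.965, 1.53 and 1.52 CPM against 1.03, 1.17 and 1.27 CPM. The groups overlapped (log2 fold change -0.20, 95% interval of the fold 0.608 to 1.24, edgeR adjusted p = 0.511). A fall, no change or a rise within that interval all remain compatible with these counts.

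The ratio of MBNL2 to MBNL1 within a library does not depend on library scaling. Per kilobase it was 0.621 in WT and 0.925 in siSRSF2 cells (geometric means), a difference of 0.57 on the log2 scale. The log2 ratio was -0.69 ± 0.028 in WT and -0.11 ± 0.22 in siSRSF2 (SD, n = 3), higher in 3 of 3 siSRSF2 libraries. An exact two-sided permutation test returned p = 0.1, which is the floor for 3 libraries in each group, and 0.6 after adjustment over the 6 ratios compared. MBNL2 accounted for 38.0% ± 0.442 of the summed MBNL level per kilobase in WT and for 47.7% ± 3.81 in siSRSF2. Under TMM scaling the summed MBNL level ran from 12.2 to 12.4 CPM per kb in WT and from 11.0 to 12.04 in siSRSF2. It was lower in each siSRSF2 library. Unlike the ratio, this sum depends on library scaling. TMM factors were 0.949 to 0.963 in WT and 1.02 to 1.06 in siSRSF2, so the lower sum is given for TMM scaling only. The ratio of MBNL3 to MBNL1 overlapped between groups (difference 0.18 on the log2 scale, exact p = 0.7).

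**Figure D3:**
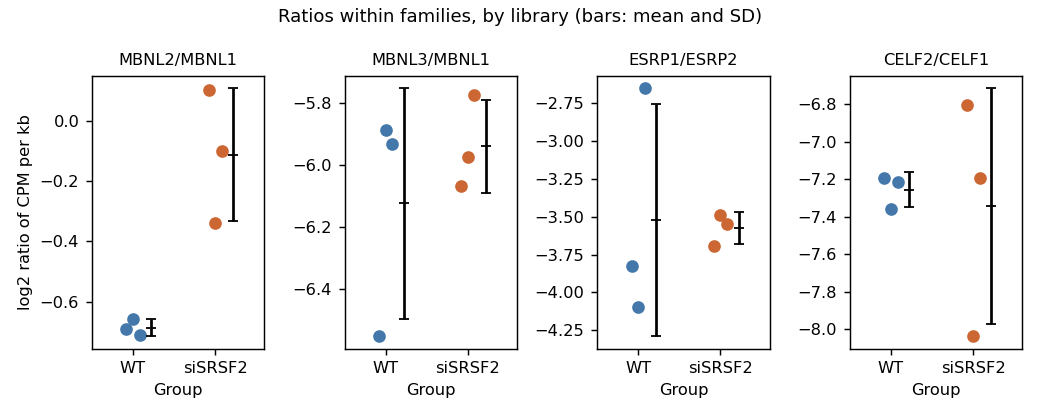
Log2 ratio of CPM per kb (y axis, a separate scale in each panel) between family members in 3 WT and 3 siSRSF2 libraries (points), with mean and SD beside them. MBNL2/MBNL1 is separate between groups (-0.69 against -0.11), and MBNL3/MBNL1, ESRP1/ESRP2 and CELF2/CELF1 overlap.

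CELF1 (chromosome 11, 47465944 to 47565569, minus strand), which also promotes decay of transcripts with GU-rich elements, had the highest level per kilobase among the 10 in WT. Its level was 147, 145 and 150.1 CPM in WT and 119, 120.03 and 130.4 CPM in siSRSF2. Every siSRSF2 library was below every WT library, with a 1.198-fold lower level (log2 fold change -0.26, SE 0.047, edgeR adjusted p = 2.68e-05). The call did not hold at a 1.2-fold threshold (adjusted p = 0.415), and the log2 fold change became -0.13 with scaling by library totals (adjusted p = 0.0223). CELF1 exons share 234 bases with NDUFS3 and 140 bases with PTPMT1, both on the opposite strand, whose log2 fold changes were -0.55 (SE 0.053, edgeR adjusted p = 1.18e-09) and -0.53 (SE 0.060, adjusted p = 2.17e-08). These parts make up 2.24% and 1.34% of the exon length of CELF1.

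CELF2 (chromosome 10, 10798397 to 11336675, plus strand), the paralog typical of heart, brain and lymphocytes, was rare. It had counts of 50, 42 and 50 in WT and of 30, 18 and 32 in siSRSF2, where replicate 2 was lowest. The groups overlapped (0.832 ± 0.328 CPM against 1.007 ± 0.0764 CPM in WT, log2 fold change -0.31, edgeR adjusted p = 0.402; 95% interval of the fold 0.524 to 1.24). The log2 fold change was -0.0054 without siSRSF2 replicate 2 and -0.54 without siSRSF2 replicate 1. Per kilobase CELF2 stood at 0.00654 of the CELF1 level in WT and 0.00615 in siSRSF2 (difference in log2 ratio -0.09, exact permutation p = 1).

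RBFOX2 (chromosome 22, 35738736 to 36028425, minus strand, 20 merged exons), which binds UGCAUG and is the RBFOX family member found in most tissues, rose most among the 10. Its level was 101, 102 and 108 CPM in WT and 161, 154 and 158 CPM in siSRSF2. The lowest siSRSF2 library stood far above the highest WT library. The mean rose from 104 ± 4.14 to 158 ± 3.08 CPM (SD, n = 3), or 1.52-fold (log2 fold change 0.60, SE 0.046, edgeR adjusted p = 1.14e-11). Among all genes tested, 76.3% had a lower log2 fold change. RBFOX2 passed in each of the 17 alternatives, with log2 fold changes from 0.53 to 0.73, and shares no exon position with another entry.

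QKI (chromosome 6, 163414000 to 163578596, plus strand), which binds ACUAA elements and is known for its part in myelination, muscle and the formation of circular RNAs, was slightly lower. It stood at 141, 135 and 140.0 CPM in WT and at 129.7, 128 and 121 CPM in siSRSF2. The groups did not overlap, and the level was 1.10-fold lower (log2 fold change -0.13, SE 0.046, edgeR adjusted p = 0.0148). The call was lost under library-total scaling (log2 fold change -0.0043, adjusted p = 0.943), in a fit of genes averaging 1 CPM or more (-0.082, 0.116), without WT replicate 1 (-0.13, 0.0579) and against a change of 1.2-fold.

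ESRP2 (chromosome 16, 68229111 to 68238102, minus strand) was the main ESRP gene of these cells. Its level was 3.55, 4.46 and 3.69 CPM in WT and 4.60, 3.48 and 4.79 CPM in siSRSF2. The groups overlapped (log2 fold change 0.13, SE 0.15, edgeR adjusted p = 0.481; 95% interval of the fold 0.882 to 1.36). ESRP2 exons share 149 bases (2.68%) with NFATC3 on the opposite strand (log2 fold change -0.33, SE 0.060, edgeR adjusted p = 3.36e-05) and 35 bases with RP11-96D1.11 on the same strand (-0.49, SE 0.11, adjusted p = 0.000433).

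ESRP1 (chromosome 8, 94641074 to 94707466, plus strand), which in most epithelial cells acts together with ESRP2, was almost undetected. It had 10, 10 and 24 counts in WT libraries against 8, 10 and 12 in siSRSF2, and WT replicate 3 was the highest library. The log2 fold change was -0.06 (edgeR adjusted p = 0.932). Its 95% interval on the fold scale was wide, 0.477 to 1.94, so changes in either direction remain compatible with these counts. Without WT replicate 3 the log2 fold change was 0.47 (adjusted p = 0.526). Per kilobase ESRP1 stood at 0.0871 of the ESRP2 level in WT and at 0.0839 in siSRSF2 (exact permutation p = 1). It stood at 0.00588 of the RBFOX2 level in WT and 0.00408 in siSRSF2 (difference in log2 ratio -0.53, or -0.16 without WT replicate 3; exact p = 0.3), and at 0.00764 and 0.00884 of the QKI level (exact p = 0.6).

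NOVA2 (chromosome 19, 45933734 to 45973546, minus strand), a regulator of neurons and endothelium, had counts of 8, 4 and 2 in WT and of 2, 1 and 8 in siSRSF2. It did not pass the filter on low counts and was not tested.

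Because some members rose and others fell, the make-up of the group changed more than its sum. Under TMM scaling the summed level of the 10 genes was 45.2 to 46.6 CPM per kb in WT and 46.0 to 48.0 in siSRSF2. The groups overlapped, but such a sum depends on library scaling, and the overlap is given for TMM scaling only. RBFOX2 made up 22.7% ± 0.531 of that sum in WT and 33.4% ± 0.155 in siSRSF2 (SD, n = 3). The share of CELF1 was 31.0% ± 0.174 in WT and 25.03% ± 1.23 in siSRSF2, that of MBNL1 16.5% ± 0.0861 and 12.5% ± 0.658, and that of QKI 17.5% ± 0.394 and 15.4% ± 0.732. ESRP1 and ESRP2 together stayed small, at 0.139% and 1.54% in WT. Shares within a library do not depend on library scaling, but they do on the exon length used for each gene.

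**Figure D4:**
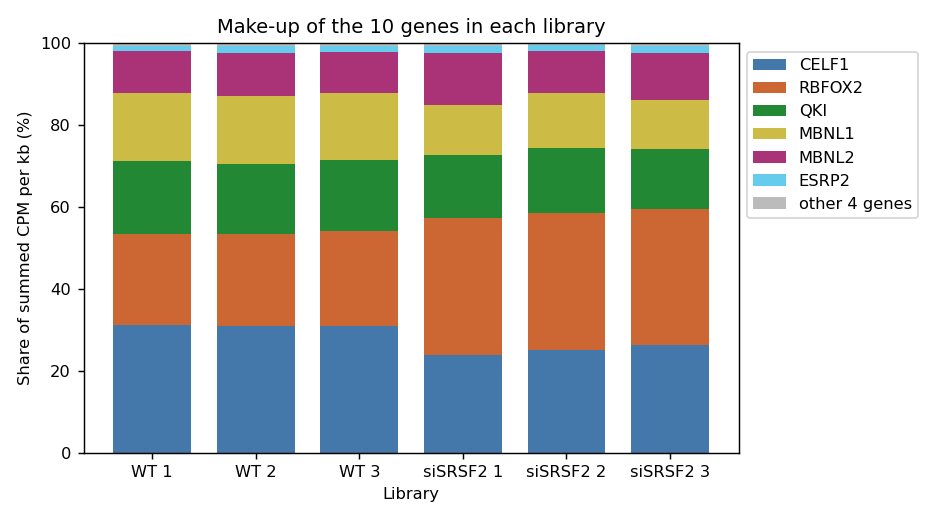
Share of each gene (%, y axis) in the summed CPM per kb of the 10 genes, for each of the 6 libraries (x axis). The RBFOX2 share is 22.7% on average in WT and 33.4% in siSRSF2, and MBNL3, CELF2, ESRP1 and NOVA2, joined as other genes, are barely visible.

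The DNA before the transcription start is shown for MBNL1 and CELF1, which fell together, and for MBNL2, which rose. RefSeq windows (GRCh38.p14) matched 6 of the 10 genes. RBFOX2 and QKI, which also passed the test of level, had no window, and neither did ESRP1 and ESRP2. For each gene the window with most GENCODE transcript starts within 100 bases was taken, without the bases after the start. The 250 bases before the start lie at chr3:152268679-152268928 (plus strand) for MBNL1, chr11:47565540-47565789 (minus strand) for CELF1 and chr13:97222083-97222332 (plus strand) for MBNL2. They were taken from 3 windows for MBNL1, 5 for CELF1 and 2 for MBNL2. Those of MBNL1 and MBNL2 lie inside the span of the gene entry, and that of CELF1 reaches into it, so other starts exist. CELF1 exons share 140 bases with PTPMT1 on the opposite strand, and overlap of the CELF1 window with that gene was not examined. Capitals mark GGGCGG and CCAAT on either strand.
MBNL1: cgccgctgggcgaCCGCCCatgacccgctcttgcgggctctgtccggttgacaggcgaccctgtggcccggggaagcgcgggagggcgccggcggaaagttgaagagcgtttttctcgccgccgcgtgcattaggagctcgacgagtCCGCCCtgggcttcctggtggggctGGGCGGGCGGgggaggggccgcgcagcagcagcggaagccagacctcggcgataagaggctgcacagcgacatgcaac
CELF1: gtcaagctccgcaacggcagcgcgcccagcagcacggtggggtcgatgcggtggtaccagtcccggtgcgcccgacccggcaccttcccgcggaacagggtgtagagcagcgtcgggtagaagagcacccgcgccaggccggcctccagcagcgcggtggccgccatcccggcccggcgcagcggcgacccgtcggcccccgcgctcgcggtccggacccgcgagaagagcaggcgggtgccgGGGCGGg
MBNL2: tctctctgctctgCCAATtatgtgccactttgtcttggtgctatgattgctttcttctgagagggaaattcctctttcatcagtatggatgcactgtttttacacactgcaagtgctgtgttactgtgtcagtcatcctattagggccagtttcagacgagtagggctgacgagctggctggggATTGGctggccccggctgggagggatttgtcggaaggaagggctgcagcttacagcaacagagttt
GC content was 70.8% for MBNL1 and 76.8% for CELF1 and 50% for MBNL2, against a median of 58.0% over all windows. GGGCGG, counted on both strands with overlaps, occurred 4 times before MBNL1, 1 time before CELF1 and 0 times before MBNL2, and 42.6% of the 35116 windows of this length held it. CCAAT occurred 2 times before MBNL2 and 0 times before the other two, with 32.0% of windows holding it. TGANTCA (6.57% of windows), CACCTG (17.5%) and CACGTG (6.35%), searched on both strands, were in none of these 3 windows. Among the other genes with a window, GC content was 79.2% for CELF2, 78.0% for NOVA2 and 49.6% for MBNL3, with GGGCGG 4, 2 and 0 times. CELF2 and MBNL3 did not pass the test of level, and NOVA2 was not tested. A relation of these letters to the direction of change was not tested. A match is a description of letters and not evidence of binding.

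Other regulators of tissue-dependent splicing were mostly not past the test. Of 26 listed genes, 20 were tested, with 2 higher, 5 lower and 13 that did not pass. This was 35% called, against 59.1% of all genes, with a list median of -0.05 on the log2 scale. Several of the 13 averaged under 1 CPM, although others were abundant. In a fit of genes averaging 1 CPM or more, 70.5% of all genes passed, and 1 gene of this list was higher and 5 lower. The share called over all genes thus depended on level, and the part of level in this list was not tested. The 2 higher among the 20 tested were RBM20 and CELF3, the latter named after its values were seen (2.17-fold, edgeR adjusted p = 0.0270). PTBP1, a repressor of exons used in neurons, fell from 64.4 ± 1.30 to 45.03 ± 0.724 CPM (log2 fold change -0.52, edgeR adjusted p = 1.70e-09). TIAL1, which binds U-rich sequence beside weak splice sites, fell from 41.2 ± 1.18 to 31.2 ± 1.17 CPM (-0.40, adjusted p = 1.13e-06), and RBM38 fell from 4.51 ± 0.427 to 2.63 ± 0.163 CPM (-0.78, adjusted p = 6.33e-05). RBM20, the regulator of titin splicing in heart, rose 6.32-fold from 0.283 ± 0.158 CPM, on 8 to 22 counts in WT and 50 to 68 in siSRSF2 (adjusted p = 8.44e-08). With scaling by library totals 6 were higher and 4 lower, and the median was 0.08.

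Genes that carry exons known to respond to these regulators were then examined for total RNA, which does not show how those exons were spliced. Of 17 tested genes with ESRP-dependent exons, 7 were higher and 7 lower (82.4% called, against 59.1% of all genes tested). In a fit of genes averaging 1 CPM or more, 6 genes of this list were higher and 7 lower, and 70.5% of all genes passed. The list median was -0.08, or 0.05 with scaling by library totals. The fibroblast growth factor receptor gene FGFR2, whose epithelial isoform depends on ESRP proteins, rose from 20.02 ± 2.60 to 47.2 ± 2.34 CPM (2.36-fold, edgeR adjusted p = 1.70e-12). GRHL1, an epithelial transcription factor, rose 2.45-fold (adjusted p = 2.01e-09). The actin regulator gene ENAH fell from 805 ± 19.2 to 590.4 ± 33.3 CPM (-0.45, adjusted p = 3.60e-09), and UAP1, an enzyme of amino sugar metabolism, fell as well (-0.63, adjusted p = 1.29e-09).

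Of 19 tested genes with MBNL- or CELF-dependent exons, 11 were higher and 3 lower (73.7% called, against 59.1% of all genes). In a fit of genes averaging 1 CPM or more, 12 genes of this list were higher and 3 lower, beside 70.5% of all genes called. The list's median log2 fold change was 0.29, and 0.42 with scaling by library totals, where the median of all genes was 0.15. The insulin receptor gene INSR, the classic target of both families in myotonic dystrophy, rose from 12.4 ± 1.51 to 35.2 ± 2.20 CPM (2.85-fold, edgeR adjusted p = 1.76e-14). NUMA1, a spindle pole protein gene, rose 1.61-fold from 505 ± 12.3 CPM (adjusted p = 2.33e-13). The laminin receptor subunit gene ITGA6 fell from 173 ± 6.87 to 70.1 ± 0.710 CPM (-1.30, adjusted p = 3.77e-18), and BIN1, a membrane-curving protein gene, fell by 0.60 on the log2 scale (adjusted p = 7.77e-11).

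Of 19 tested genes with RBFOX- or QKI-dependent exons, 8 were higher and 8 lower (84.2% called, against 59.1% of all genes). In a fit of genes averaging 1 CPM or more, 9 genes of this list were higher and 8 lower, beside 70.5% of all genes called. The list median was -0.04, and 0.09 with scaling by library totals. ADD3, a membrane skeleton gene, rose from 36.3 ± 0.962 to 91.8 ± 4.97 CPM (2.53-fold, edgeR adjusted p = 2.41e-17). EPB41, a protein 4.1 gene with an RBFOX-dependent exon in red cells, rose 1.51-fold (adjusted p = 1.93e-11) and the transcription factor gene MEF2A 1.599-fold (adjusted p = 4.96e-10). FGFR2 stands in this list as well. Some genes, such as FN1, NUMB and ENAH, stand in more than 1 list, so the counts are not independent.

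Of 13 tested transcription factors that act on ESRP genes or on epithelial state, 5 were higher and 3 lower (61.5% called, against 59.1% of all genes tested). Their median log2 fold change was 0.20, and 0.33 with scaling by library totals. ELF3, an epithelial ETS factor, rose from 8.37 ± 1.47 to 51.4 ± 1.46 CPM (6.13-fold, edgeR adjusted p = 2.56e-16), KLF5 rose 1.42-fold (adjusted p = 4.70e-09) and the mesenchymal factor TWIST1 1.90-fold (adjusted p = 1.61e-07). GRHL1 is in this list too. ZEB1, a repressor of ESRP genes named here after its values were seen, stood at 91.1 ± 2.88 CPM in WT and 86.3 ± 6.81 CPM in siSRSF2 (log2 fold change -0.08, adjusted p = 0.205). ZEB2, in the same list, was higher (log2 fold change 0.20, edgeR adjusted p = 0.00436). The 3 lower were FOXA1 (log2 fold change -0.99), KLF4 (-0.87) and OVOL2 (-0.46). ZEB2 and these 3 were likewise named after their values were seen.

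**Figure D5:**
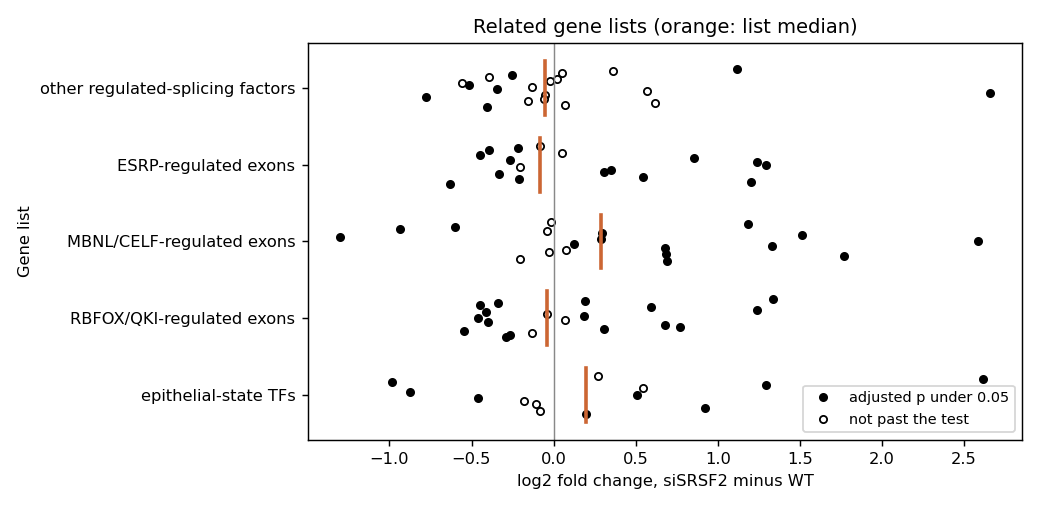
Log2 fold change (siSRSF2 minus WT, x axis) of each tested gene in 5 related gene lists (y axis), filled where the adjusted p was under 0.05, with the list median in orange. Each list holds genes on both sides of 0, and the medians run from -0.08 to 0.29.

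RBFOX2 and MBNL1 were compared with all 17149 genes averaging 1 CPM or more by Pearson correlation of log2 CPM over the 6 libraries, as a description. For RBFOX2 the most alike were HR (r = 0.9996), NUCB1 (0.9996) and RNF24 (0.9995), and for MBNL1 they were TUBA1B (0.9999), RP11-386G11.10 (0.9998) and LMNB1 (0.9997). The entries TUBA1B and RP11-386G11.10 share 1309 exon bases on opposite strands. The libraries form 2 groups of 3, and 620 genes had r over 0.99 with RBFOX2 and 665 with MBNL1.

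Markers of several cell types moved with the groups, and for 3 of the 4 lists below the summed level, which the most abundant genes carry, went against the list's median. The 20 epithelial and gastric genes summed to 4166 to 4577 CPM in WT and 3769 to 4031 CPM in siSRSF2. KRT8 alone went from 3236 ± 156 to 2776 ± 101 CPM, whereas of the 16 genes tested 7 were higher and 2 lower, with a median log2 fold change of 0.52. The 15 mesenchymal, fibroblast and endothelial genes summed to 522 to 555 CPM in WT and 440.1 to 469.8 CPM in siSRSF2. VIM (351 ± 15.1 CPM in WT, log2 fold change -0.21) and CDH2 (120.4 ± 8.51 CPM, -0.89), the most abundant, fell, whereas 6 of the 12 genes tested were higher and 5 lower, with a median of 0.34. The 12 neuron genes summed to 58.7 to 62.8 CPM in WT and 48.1 to 55.8 CPM in siSRSF2. TUBB3 fell from 50.1 ± 3.04 to 29.2 ± 4.36 CPM and SNAP25 rose 2.70-fold, and of 9 genes tested 2 were higher and 1 lower, with a median of 0.45. The 12 muscle genes summed to 9.70 to 11.1 CPM in WT and 57.5 to 62.1 CPM in siSRSF2, with TNNT1 and DES highest and MYOG at 0 in all libraries. TNNT1 (3.41 ± 0.255 CPM in WT, 40.0 ± 3.62 in siSRSF2) and DES (2.45 ± 0.468 and 13.9 ± 1.47 CPM) carried most of the rise in that sum. Of 6 muscle genes tested, 3 were higher and 3 did not pass, with a median of 0.68. Under 1 CPM on average were 8 of 20 epithelial, 6 of 15 mesenchymal, 9 of 12 neuron and 7 of 12 muscle genes. Across all genes tested, 30.1% were higher and 29.0% lower. The part of these markers in the members' changes was not tested.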

How the data were processed

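Per the labels' protocols, TRI Reagent was used for RNA and a SMARTER kit for libraries. The deposited values are read counts by gene, without normalization, in 1 table, with the exon length of each entry. HISAT2 2.0.5 and featureCounts 1.5.0-p3 are named per the submitters' processing notes, with mm10, a mouse build, although the table holds human genes. Positions of the 10 members matched GENCODE release 29 (GRCh38) within 100 kb and are given as GRCh38. No source used here states strand or read filters.

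The analysis ran in edgeR 4.0.16 under R 4.3.3: filterByExpr (minimum count 10) kept 23689 genes and 99.9% of counts, libraries were scaled by TMM, and the robust quasi-likelihood F test compared siSRSF2 with WT, with Benjamini-Hochberg adjustment over all genes tested at 0.05. Levels per kilobase divide CPM by the exon length in the table, the union of all annotated exons, so genes with long unused exons read low. Ratios used a pseudocount of 0.5 counts. Between replicates of a group the chi-square per gene was 3.83 to 8.75. As both reads of a pair may have been counted, this value alone does not settle whether any were repeats of 1 library. Members and lists were chosen with earlier results of these data known. Named genes were, per pathway list, up to 4 with the smallest p among those past the test, per marker list the 2 most abundant (1 marker list is not reported here), the entries sharing exon positions with a member, and for the 2 members with the largest change the 3 genes of highest correlation. The pipeline was tested on simulated data. Alternatives were DESeq2 1.42.0, limma 3.58.1 voom, RLE factors, library totals, other filters, a non-robust fit, a fit without mitochondrial genes, a replicate block, a 1.2-fold threshold, each library left out, and, chosen after most small counts were seen to be even, counts halved.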

Additional observations from a re-analysis of the deposited data

How the results depend on the processing

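RBFOX2 and MBNL1 passed in the same direction in all 17 alternatives. The number of members higher was 1 in place of 2 with no low-count filter and with the 1.2-fold threshold, which also left 1 lower in place of 3, and without single libraries 1 to 2 were higher and 2 to 3 lower. MBNL2 ended at 0.14 (no filter) and 0.21 (1.2-fold), CELF1 at -0.26 (1.2-fold) and QKI at -0.0043 (library totals), -0.082 (mean CPM of at least 1) and -0.13 (1.2-fold), all as log2 fold changes no longer past the test. Without single libraries MBNL2 ranged from 0.13 to 0.29 and QKI from -0.16 to -0.11, and of those not past the test CELF2 from -0.54 to -0.0054, ESRP2 from 0.028 to 0.27 and MBNL3 from -0.40 to -0.10. ESRP1, which did not pass in any fit, turned to 0.068 with limma voom, 0.073 with library totals and 0.0038 with the replicate block, and ranged from -0.28 to 0.47 without single libraries. Of the ratios, MBNL3/MBNL1 ranged from -0.029 to 0.30, ESRP1/QKI from -0.016 to 0.60, ESRP1/RBFOX2 from -0.72 to -0.16, MBNL2/MBNL1 from 0.47 to 0.69, ESRP1/ESRP2 from -0.34 to 0.38 and CELF2/CELF1 from -0.36 to 0.26 without single libraries. Among other splicing regulators 1 gene was higher in place of 2 with DESeq2, with no filter and with mean CPM of at least 1, 6 with library totals, and 1 to 3 without single libraries, and 3 in place of 5 were lower with the 1.2-fold threshold. That threshold also gave 3 in place of 7 lower for genes with ESRP-dependent exons and 5 in place of 8 higher for genes with RBFOX- or QKI-dependent exons. The cause was not tested. Scaling by library totals shifted the median of all genes by 0.13 and made 60.9% of calls higher in place of 51.0% (8560 higher and 5492 lower, against 7129 and 6862).

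Same-numbered libraries did not deviate together (correlations 0.04, -0.08 and -0.05), so the numbers were not taken as pairs, and the replicate block gave 6927 higher and 6770 lower and ended no member's call. NOVA2, tested only without the filter, had a log2 fold change of 0.07 (edgeR adjusted p = 0.96). Depth limits ESRP1, CELF2, MBNL3 and NOVA2. The length used for levels matters for order: by CPM alone QKI ranked 2 in each group.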
